A study of Mus musculus with 7 samples.

Results

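MiR-342 is a microRNA hairpin in an intron of Evl, and its mature arms, miR-342-5p (mmu-miR-342-5p) and miR-342-3p (mmu-miR-342-3p), were followed in CD8+ T cells of neonatal and adult mice. Both arms were found by name among 1978 mature miRNAs counted, each on a single line of the table. Small RNA was sequenced from splenic CD8+ T cells of gBT-I mice, all of which carry a transgenic T cell receptor. Virtual memory (VM) cells were sorted as CD44hi CD122hi, and true naive (TN) cells as CD44lo CD122lo. There were 2 neonatal VM, 1 neonatal TN, 2 adult VM and 2 adult TN libraries, with 1577031 to 3278451 counts each. The labels give neither the ages in days nor the animals behind each replicate, so the p-values rest on a spread between libraries that may be only technical, and the neonatal TN library has no SD. MicroRNA levels alone cannot show that these are CD8+ T cells, but 4 miRNAs known to be abundant in lymphocytes (miR-150-5p, miR-142a-5p, miR-142a-3p and miR-181a-5p) together held 20.8 to 45.8% of the counts of every library.

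Dicer cuts a miRNA hairpin into a duplex of its 5p and 3p arms, and an Argonaute protein keeps one of them as the guide that recognises target RNAs through its seed, bases 2 to 8. The arm that is not kept is usually degraded sooner, so the ratio of the arms describes strand use and stability together. A miRNA in an intron is usually transcribed with its host gene. Evl encodes an Ena/VASP protein that regulates actin filaments, and miR-342 is known as a miRNA of resting T and B lymphocytes. Host transcripts were not measured here.

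The mature arms are shown because the 5p and 3p arms behaved differently, and the hairpin because it places them. Capitals mark the seed in the arms and the mature arms in the hairpin. All are on the plus strand of chromosome 12, from RefSeq on GRCm38.p6.
miR-342-5p: aGGGGUGCuaucugugauugag
miR-342-3p: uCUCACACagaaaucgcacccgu
mir-342 hairpin: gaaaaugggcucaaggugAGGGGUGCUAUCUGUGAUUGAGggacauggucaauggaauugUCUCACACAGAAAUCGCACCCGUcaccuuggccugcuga

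The hairpin of 99 bases lies at chr12:108658620-108658718, the 5p arm at chr12:108658638-108658659 and the 3p arm at chr12:108658680-108658702. In GENCODE M21 on GRCm38 (mm10), Evl runs on the same strand from 108554720 to 108688516. The hairpin sat inside an intron of 20189 bases (108653100 to 108673288) in all 5 annotated Evl transcripts that span it, 5520 bases after the preceding exon and 14570 bases before the next. That intron was the third in 4 of these transcripts and the fourth in Evl-204. The nearest other miRNA hairpin on the chromosome in RefSeq, Mir345, was 178255 bases away, and its arms averaged 4.50 (miR-345-5p) and 5.56 CPM (miR-345-3p), below the minimum for testing. In the predicted fold of the hairpin (RNAfold, minimum free energy -46.8 kcal/mol), 17 of the 22 bases of the 5p arm paired with the 3p arm. The 5p arm began with A and held 9 G, against U and 3 G in the 3p arm. No other mouse miRNA in the RefSeq table had the seed of either arm, so neither arm belongs to a seed family there.

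The 3p arm was the abundant one in every library. On the CPM scale (each count relative to its library's TMM-scaled total), miR-342-3p stood at 3949 and 3745 CPM in neonatal VM, 4140 CPM in neonatal TN, 3999 and 3437 CPM in adult VM, and 4745 and 6280 CPM in adult TN cells. The 2 adult TN libraries were the highest, and the neonatal and adult VM libraries overlapped. Its highest library was 1.83 times its lowest, and 88.5% of the 288 miRNAs tested spanned a wider range. By mean CPM it ranked 30 among those 288, between miR-192-5p (4776 CPM) and miR-744-5p (3862 CPM).

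On the TMM scale, miR-342-5p was at a similar level in all groups but adult VM. It stood at 1013 and 1029 CPM in neonatal VM, 953 CPM in neonatal TN, 595 and 196 CPM in adult VM, and 989 and 1190 CPM in adult TN cells. Both adult VM libraries were below all 5 others, and they were far apart from each other. The 5p arm averaged 1021 ± 11.0 CPM in neonatal VM, 395 ± 282 CPM in adult VM and 1089 ± 143 CPM in adult TN cells (SD, n = 2 each). Between its highest and lowest library lay a factor of 6.07, and by mean CPM it ranked 66, next below miR-150-3p (871 CPM) and next above miR-139-5p (840 CPM). The raw counts behind the lowest value were 567 in adult VM replicate 2, against 1478 in replicate 1. As a plain share of library counts, miR-342-5p took 0.130 and 0.131% in neonatal VM and 0.103% in neonatal TN cells. In adult cells it took 0.0545 and 0.0173% in VM and 0.0891 and 0.0930% in TN. On that scale the neonatal VM libraries were the highest, and the adult VM libraries were still the lowest.

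**Figure D1:**
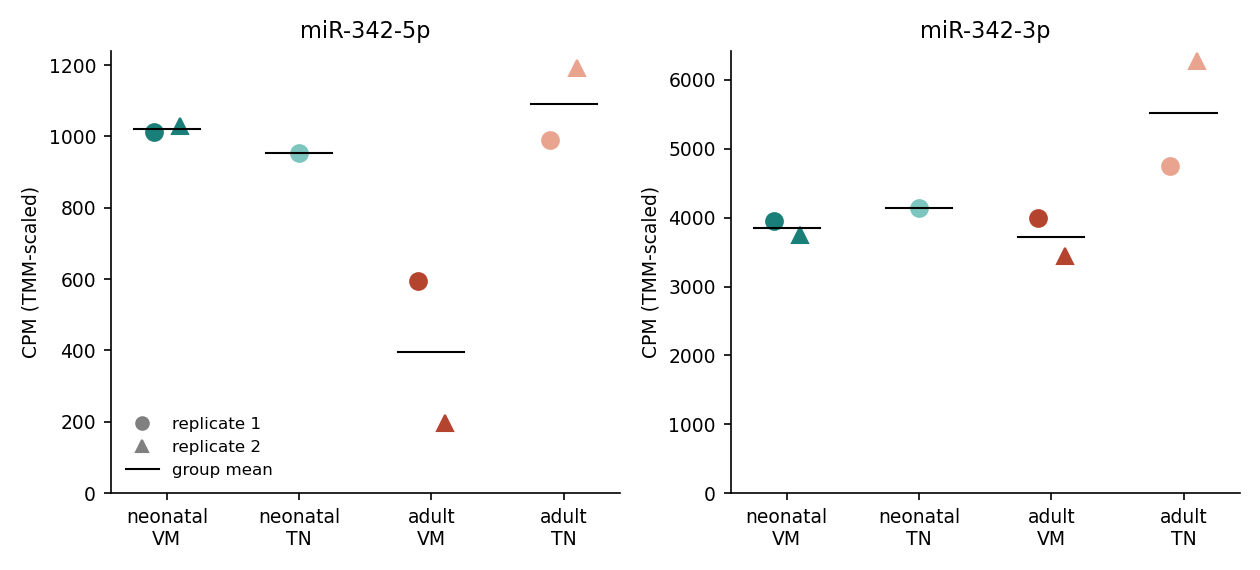
Level of miR-342-5p (left) and miR-342-3p (right) in CPM scaled by TMM factors, in each library of the 4 groups. Circles are replicate 1, triangles replicate 2 and lines group means. The adult VM libraries, at 595 and 196 CPM, lie below all others for the 5p arm, while for the 3p arm they lie at 3999 and 3437 CPM beside the neonatal ones.

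Ordered by group mean, the 3p arm ran from adult VM (3718 ± 398 CPM) through neonatal VM (3847 ± 144) and neonatal TN (4140) to adult TN (5513 ± 1086; SD, n = 2 each but neonatal TN). Adult VM and neonatal VM libraries overlapped, whereas the neonatal TN library lay above all 4 VM libraries and below both adult TN ones; it has no replicate to give its spread. This order depends on the scaling, because neonatal libraries had TMM factors of 1.08 to 1.28 and adult ones of 0.781 to 0.915. As a plain share of library counts, miR-342-3p took 0.506 and 0.477% in neonatal VM, 0.446% in neonatal TN, 0.366 and 0.303% in adult VM, and 0.428 and 0.491% in adult TN cells. On that scale the adult VM libraries were the lowest, and neonatal VM replicate 1 was the highest.

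The arm ratio is taken within a library and does not depend on the scaling. The 5p arm made up 20.4 and 21.5% of all miR-342 counts in neonatal VM, 18.7% in neonatal TN, 13.0 and 5.40% in adult VM, and 17.2 and 15.9% in adult TN cells. Neonatal libraries were all above adult ones, and adult VM libraries were below adult TN ones. The widest 95% Wilson interval was 19.6 to 21.2% (neonatal VM replicate 1), and that of adult VM replicate 2 was 4.98 to 5.84%. Such intervals hold counting error within a library and no spread between libraries. PCR copies of a molecule are counted as separate reads, so the intervals may be too narrow even for counting error. Put as a ratio, 3.90 and 3.64 counts of the 3p arm fell on each of the 5p arm in neonatal VM, 4.34 in neonatal TN, 6.72 and 17.5 in adult VM, and 4.80 and 5.28 in adult TN cells. Apart from adult VM, replicates lay close together (21.0 ± 0.799% in neonatal VM and 16.6 ± 0.926% in adult TN cells, against 9.17 ± 5.34% in adult VM cells; SD, n = 2 each).

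**Figure D2:**
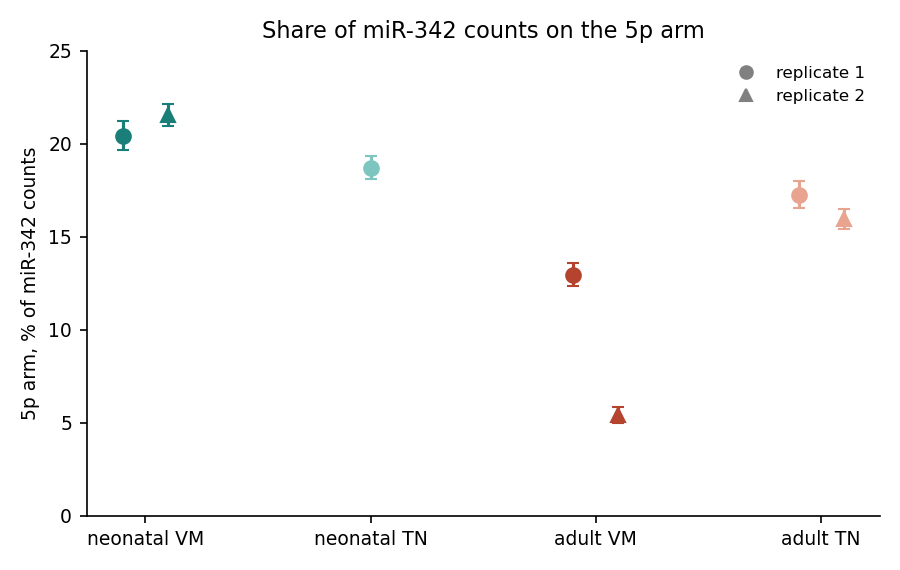
Share of miR-342 counts on the 5p arm, in percent, per library of the 4 groups, with 95% Wilson intervals (counting error only). Neonatal libraries lie between 18.7 and 21.5%, adult TN libraries at 17.2 and 15.9% and adult VM libraries at 13.0 and 5.40%.

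Among the 66 miRNAs with both arms tested, 25 had more 3p than 5p counts on average and 41 the reverse. The dominant arm was the same in all 7 libraries for 52 of them, miR-342 included. The mean log2 ratio of 5p to 3p was -2.50 for miR-342, and 63.6% of pairs were more lopsided, so its minor arm was comparatively well represented. Among other pairs listed as intronic, that of miR-151, listed under Ptk2, came nearest, at a mean log2 ratio of -1.08.

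The comparison of neonatal with adult cells asked how the arms vary with age. In VM cells, the 5p to 3p ratio was 2.88 times higher in neonatal than in adult cells (log2 fold change 1.53, SE 0.44, limma adjusted p = 0.0441), and all neonatal VM libraries were above all adult VM ones. Of the 66 arm pairs, 28.8% passed the same test, so a changed ratio was common there. Without adult VM replicate 2, the log2 fold change was 0.84 (limma adjusted p = 2.25e-04), and without replicate 1 it was 2.22 (adjusted p = 2.06e-18), where the lone adult VM library is assumed to vary like the other groups; the sign was kept, but the size rested on which adult VM library was used. The call was lost without either neonatal VM library (adjusted p = 0.121 and 0.166) or either adult TN library (0.0585 and 0.0539), under the 100 CPM filter (0.0553) and with no filter (0.104).

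Of the arms in VM cells, the 5p had the larger difference. The level of miR-342-5p had a log2 fold change of 1.37 between neonatal and adult VM cells (SE 0.52, 95% interval 0.04 to 2.70), which missed the threshold (edgeR adjusted p = 0.0786), while 53.8% of the 288 miRNAs passed that comparison. That of miR-342-3p was 0.05 (95% interval -0.38 to 0.48, edgeR adjusted p = 0.838). Scaled by library totals, which moves the median of all tested miRNAs from -0.08 to 0.43, the 5p arm stood at 1.86 (adjusted p = 0.0341) and the 3p arm at 0.55 (adjusted p = 0.0181), so the 3p value lies near the centre of all miRNAs on either scale. DESeq2 and limma voom called the 5p arm higher (log2 fold change 1.50, adjusted p = 9.12e-04, and 1.59, adjusted p = 0.0390). In edgeR it passed without adult VM replicate 1 (2.37, adjusted p = 7.77e-17), without adult VM replicate 2 (0.83, adjusted p = 1.56e-06), each of which leaves a lone adult VM library, and without adult TN replicate 2 (1.39, adjusted p = 0.0479).

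In TN cells, where 1 neonatal library was set against 2 adult ones, neither the level of an arm nor the ratio passed. MiR-342-3p had a log2 fold change of -0.41 (95% interval -0.95 to 0.12, edgeR adjusted p = 0.182) and miR-342-5p of -0.19 (-1.80 to 1.41, edgeR adjusted p = 0.841), against 47.9% of miRNAs called. The ratio had a log2 fold change of 0.21 (-1.06 to 1.48, limma adjusted p = 0.816), against 13.6% of pairs called. With upper quartile factors the 3p arm was called lower in neonatal TN cells (-0.72, edgeR adjusted p = 0.0284). Without adult VM replicate 2 the 3p arm stood at -0.44. That fit leaves a lone library in adult VM as in neonatal TN, so its p-value is not given and no call is read from it.

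Taken over both subsets, the ratio was 2.001 times higher in neonatal cells (log2 fold change 1.001, SE 0.37) and missed the threshold (limma adjusted p = 0.0674), with 27.3% of pairs called. Without adult VM replicate 2 it was 0.52 (adjusted p = 0.0452), and it also passed without the neonatal TN library, where the fit compares VM cells alone (1.53, adjusted p = 0.0445). Neither arm's level passed: miR-342-5p had 0.79 (95% interval -0.23 to 1.81, edgeR adjusted p = 0.167) and miR-342-3p -0.13 (-0.57 to 0.30, edgeR adjusted p = 0.578), with 53.8% of miRNAs called. Left out in turn, adult VM replicate 2 gave the 5p arm 0.30 and the neonatal TN library 1.39 (edgeR adjusted p = 0.311 and 0.0636).

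The comparison of VM with TN cells asked how the arms vary between the subsets. In adult cells miR-342-3p was 1.48 times lower in VM than in TN cells (log2 fold change -0.57, SE 0.20, edgeR adjusted p = 0.0387), where 38.9% of miRNAs passed. The call was lost under library totals (-0.46, adjusted p = 0.0603), without adult TN replicate 2 (-0.41, adjusted p = 0.246) and without either neonatal VM library (-0.60 each, adjusted p = 0.0794 and 0.0774). MiR-342-5p had the larger difference and the larger error, a log2 fold change of -1.46 (SE 0.52, 95% interval -2.80 to -0.13), and did not pass (edgeR adjusted p = 0.0790). It was called lower by DESeq2 (-1.55, adjusted p = 0.00101) and limma voom (-1.68, adjusted p = 0.0431), and in edgeR without adult VM replicate 1 (-2.51, adjusted p = 2.92e-18) or replicate 2 (-0.99, adjusted p = 2.94e-08), each of which leaves a lone adult VM library.

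The arm ratio did not pass between adult VM and adult TN cells (log2 fold change -1.11, 95% interval -2.14 to -0.07, limma adjusted p = 0.138), with 4.55% of pairs called. Its size depended on the adult VM library: it was -1.80 without replicate 1 and -0.42 without replicate 2. Each of these fits leaves a lone adult VM library, so their p-values are not given and no call is read from them. In neonatal cells the subsets were close. Between neonatal VM and neonatal TN cells the log2 fold change was 0.10 for the 5p arm (95% interval -1.50 to 1.70, edgeR adjusted p = 0.925), -0.11 for the 3p arm (-0.63 to 0.42, edgeR adjusted p = 0.833) and 0.21 for the ratio (-1.06 to 1.47, limma adjusted p = 0.889). In that comparison 9.72% of miRNAs and 0 of 66 pairs were called. The 3p value is negative under TMM factors but positive under library totals (0.14) and upper quartile factors (0.27).

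Over both ages, VM against TN cells gave log2 fold changes of -0.88 for miR-342-5p (95% interval -1.90 to 0.14, edgeR adjusted p = 0.176), -0.39 for miR-342-3p (-0.82 to 0.05, edgeR adjusted p = 0.163) and -0.58 for the ratio (-1.41 to 0.24, limma adjusted p = 0.363). None passed, where 24.7% of miRNAs and 6.06% of pairs did. The 5p arm stood at -0.46 without adult VM replicate 2 and -1.47 without the neonatal TN library, and the ratio at -0.11 and -1.11, none of which passed. The 3p arm passed without the neonatal TN library, where only adult cells are compared (-0.58, adjusted p = 0.0375). The interaction, the subset difference in neonatal minus that in adult cells, was 1.56 for the 5p arm (95% interval -0.56 to 3.68, edgeR adjusted p = 0.309), 0.46 for the 3p arm (-0.22 to 1.14, edgeR adjusted p = 0.404) and 1.31 for the ratio (-0.32 to 2.95, limma adjusted p = 0.383). It was called for 7.99% of miRNAs and 0 of 66 pairs. For the 5p arm the interaction was 2.60 without adult VM replicate 1 and 1.06 without replicate 2, and for the ratio 2.01 and 0.62. Each of these fits leaves a lone library in both adult VM and neonatal TN, so the spread comes from the other groups. Their p-values are therefore not given, and no call is read from them.

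**Figure D3:**
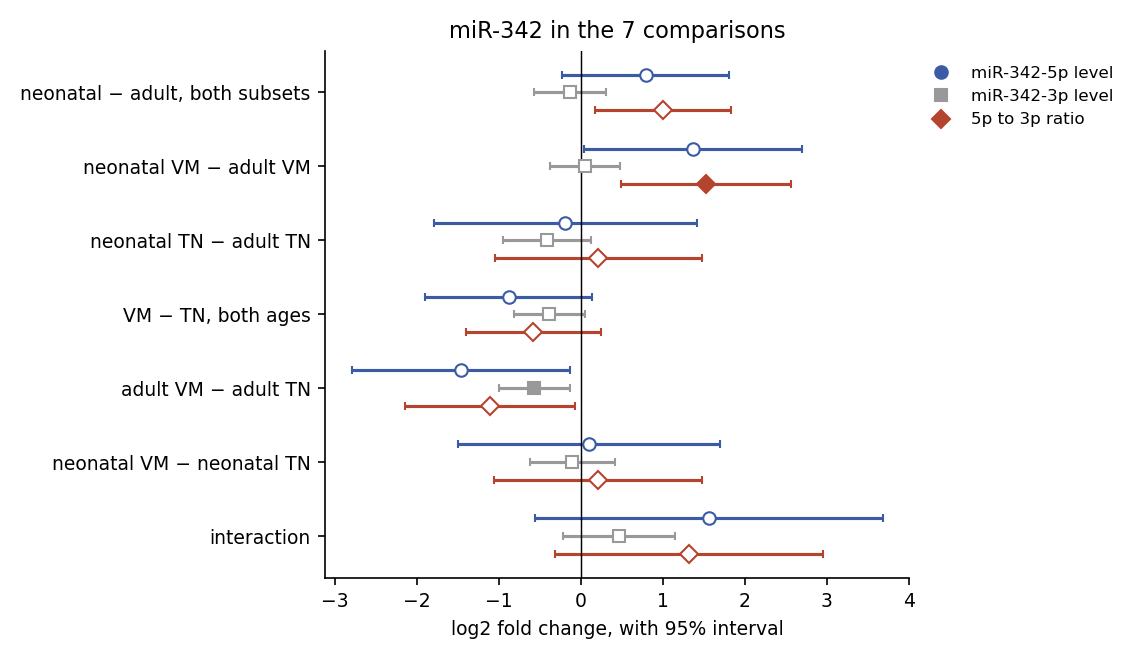
Log2 fold changes of the miR-342-5p level, the miR-342-3p level and the 5p to 3p ratio in the 7 comparisons, with 95% intervals; the group named first is on top of the fold change. Filled points have an adjusted p of at most 0.05: the ratio for neonatal against adult VM cells (1.53) and the 3p arm for adult VM against adult TN cells (-0.57).

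The adult VM replicates were far apart for the 5p arm and not for the 3p arm. MiR-342-5p was 3.03-fold lower in adult VM replicate 2 than in replicate 1, a gap that 8 of the 288 tested miRNAs exceeded, while miR-342-3p differed 1.16-fold. The labels describe the preparation of both libraries alike and do not show whether they differed in it. In neonatal VM cells replicates of miR-342-5p differed 1.02-fold and in adult TN cells 1.20-fold. The arm ratio differed 2.61-fold between the adult VM replicates, against 1.07-fold in neonatal VM and 1.10-fold in adult TN cells. Replicates of the 288 tested miRNAs as a whole were also further apart in adult VM cells, where log2 differences had an SD of 0.72, than in neonatal VM (0.43) and adult TN cells (0.48).

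A run of 4 G, which miR-342-5p holds within its seed, was shared by several miRNAs that were low in adult VM replicate 2. This grouping was chosen after the values were seen. The sequences of miR-342-5p and of the 3 other such miRNAs that were over 2-fold lower there and well detected are shown with the run in capitals, again from RefSeq on GRCm38.p6.
miR-342-5p: aGGGGugcuaucugugauugag
miR-423-5p: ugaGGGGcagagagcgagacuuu
miR-744-5p: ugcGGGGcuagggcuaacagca
miR-150-3p: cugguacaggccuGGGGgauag

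Of the 288 tested miRNAs, 236 matched a RefSeq mature sequence by name, and 11 of these (4.66%) held GGGG on the mature strand, against 11.2% of 1679 mature names in RefSeq. In adult VM replicates 1 and 2, miR-423-5p had 6330 and 194 CPM, miR-744-5p 1375 and 438 CPM, and miR-150-3p 690 and 322 CPM. In the other 5 libraries miR-423-5p lay between 11026 and 14688 CPM, so like miR-342-5p it was lowest in the adult VM libraries. Between the adult VM replicates, the 11 miRNAs with the run, miR-342-5p included, had a median log2 difference of -1.05. Of these, 6 were over 2-fold lower in replicate 2. The 225 without it had a median of 0.02, with 12 over 2-fold lower and 7 over 2-fold higher. Of the 6, miR-5128 and miR-7059-5p rest on 0.805 CPM each in replicate 1 and 0 in replicate 2. Their log2 difference of -1.05 is also the median of the 11, so that median rests on values near the floor. Tested miRNAs with no RefSeq sequence are in neither set, and some were also over 2-fold apart. Among them, miR-669c-5p was lower in replicate 2 (log2 CPM 4.89 and 2.73) and miR-185-5p higher (4.27 and 5.41). Of all 288 tested miRNAs, 35 differed over 2-fold between these replicates in either direction. The 11 were not alike, since miR-361-5p (467 and 588 CPM) and miR-155-5p (907 and 1117 CPM) were higher in replicate 2. In neonatal VM and adult TN cells the median difference of the 11 was -0.04 and 0.25, and none was over 2-fold lower in replicate 2.

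**Figure D4:**
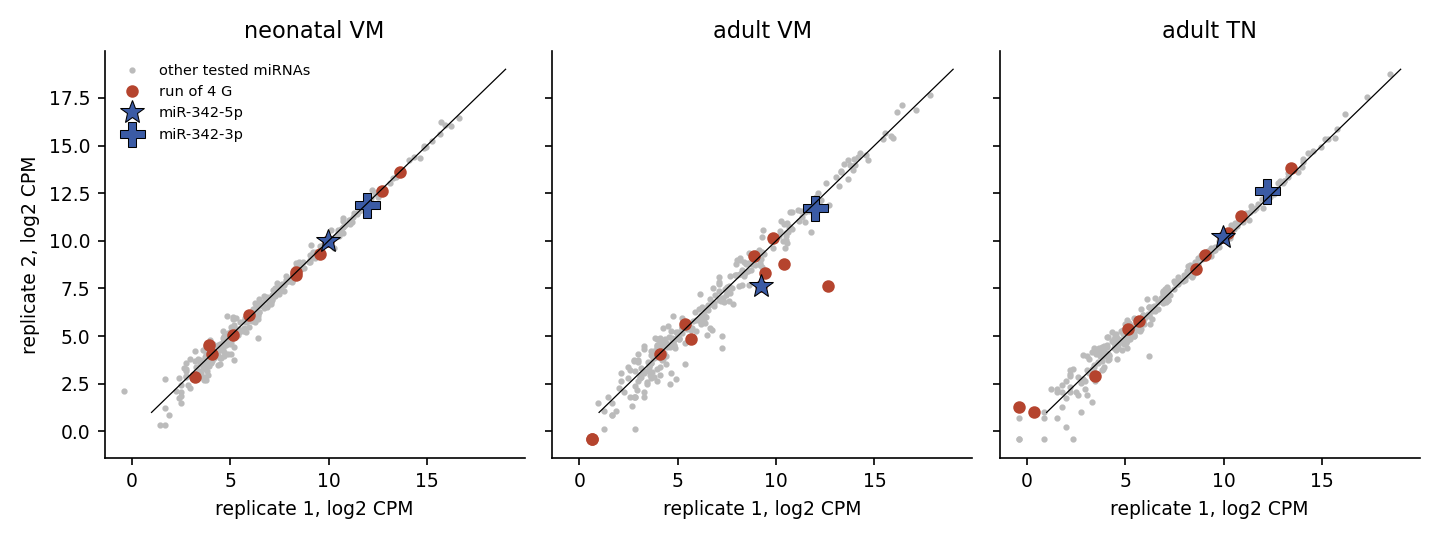
Log2 CPM of the 288 tested miRNAs in replicate 1 (x) and replicate 2 (y) of neonatal VM, adult VM and adult TN cells, with the line of equality; red points hold a run of 4 G, the star is miR-342-5p and the cross miR-342-3p. In adult VM cells the star and several red points lie below the line, with miR-423-5p furthest (6330 and 194 CPM); the cross lies near it in all 3 panels.

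The levels of other miRNAs were compared with each arm by Pearson's r of log2 CPM over the 7 libraries, among the 165 other tested miRNAs that averaged 50 CPM or more; all share the libraries and their scaling, so r is a description. Most like miR-342-5p were miR-423-5p (r = 0.983), miR-423-3p (0.943), miR-25-5p (0.936), miR-674-3p (0.925) and miR-30c-1-3p (0.915). All 5 had their lowest value in adult VM replicate 2, as miR-342-5p did. MiR-25-5p, for example, lay at 31.1 CPM there and at 135 CPM on average. Most like miR-342-3p were miR-125a-5p (0.904), let-7d-5p (0.883), miR-23a-3p (0.851), miR-92a-3p (0.817) and miR-339-5p (0.816), each highest in the adult TN libraries. The arms of miR-342 themselves had r = 0.589. The 3p arm ranked only 24 among the 165 for likeness to the 5p arm, and the 5p arm 32 for likeness to the 3p arm.

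**Figure D5:**
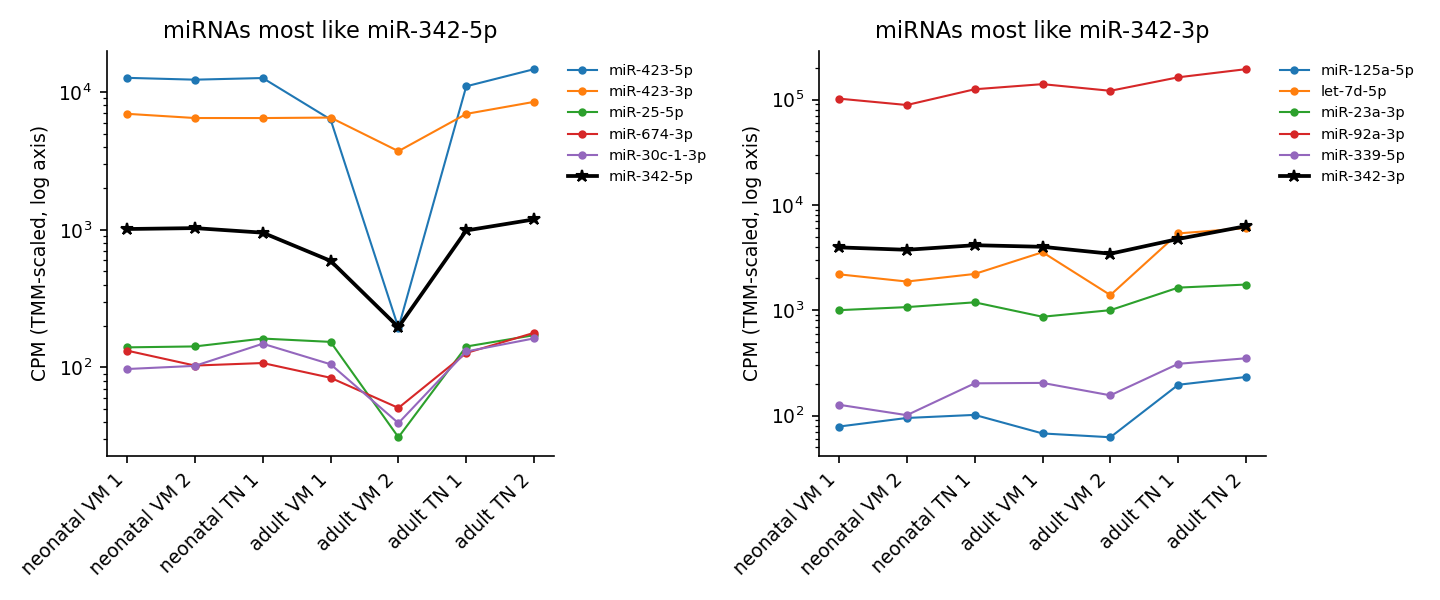
CPM (log axis) in each of the 7 libraries for miR-342-5p (left) and miR-342-3p (right), in black, and for the 5 miRNAs with the highest Pearson's r to each. On the left all lines dip at adult VM replicate 2, where miR-342-5p is at 196 CPM; on the right all lines are highest in the adult TN libraries, where miR-342-3p is at 4745 and 6280 CPM.

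MiR-342 was set beside other miRNAs known to be abundant in resting T cells, a list of 21 that includes both of its arms. By the edgeR test, 14 of the 21 were lower in neonatal than in adult VM cells and none was higher. Of all 288 miRNAs 66 were higher and 89 lower there (53.8% in either direction), and the list median was -0.84 against -0.08 over all. MiR-29a-3p, known to repress T-bet and interferon gamma, had -2.73 and miR-101a-3p -2.56. Neither miR-342 arm was among the 14. In neonatal TN cells 3 were higher and 7 lower than in adult TN cells. Of all miRNAs 47.9% were called (list median -0.26, all miRNAs 0.04). In adult VM cells 10 were higher and 3 lower than in adult TN cells. The 3 were miR-342-3p, miR-150-3p (-1.34) and miR-150-5p (-0.87), while miR-30a-5p (3.21) and miR-101a-3p (1.91) were higher by the most. Of all 288 miRNAs 67 were higher and 45 lower there (38.9% called), and the list median was 0.52, against 0.09 over all. In neonatal VM cells 1 was higher than in neonatal TN cells, miR-29c-3p (1.21), and none was lower, against 9.72% of all miRNAs called.

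For miRNAs induced on T cell activation, 10 of 14 tested were higher and 1 lower in adult VM than in adult TN cells. The list median was 1.50, against 0.09 over all 288 miRNAs, of which 67 were higher and 45 lower (38.9% called). MiR-21a-5p was among the higher (2.55), and miR-132-3p was lower (-2.34). In neonatal VM against neonatal TN cells 3 were higher and 2 lower, against 9.72% of all miRNAs called. In neonatal against adult cells 5 were higher and 3 lower in VM, and 6 and 2 in TN, against 53.8% and 47.9%. For the interaction 0 were higher and 4 lower, against 7.99%. Among miRNAs listed as hosted in introns of protein-coding genes, 42 arms other than those of miR-342 were tested. In neonatal VM cells 12 of them were higher than in adult VM cells, such as miR-744-5p from Map2k4 (2.84). Another 11 were lower, such as miR-151-3p from Ptk2 (-2.82). Together they made a share near the 53.8% called over all miRNAs. In adult VM cells 9 were higher and 5, such as miR-211-5p from Trpm1 (-2.82), lower than in adult TN cells, against 38.9% over all. In neonatal against adult VM cells, the 5p to 3p ratio of 16 other pairs listed as intronic was higher for 3 and lower for 2. The largest were miR-744 (2.23) and miR-139 (-2.41), and the share is near the 28.8% of all 66 pairs. Between adult VM and adult TN cells 0 of the 16 passed, against 4.55% of all pairs (limma adjusted p at most 0.05). The miR-28a pair was among the 3 higher (1.78). Its hairpin was not found inside its listed host, Lpp, on the same strand in GENCODE M21. For miR-151 no RefSeq hairpin was available to check against Ptk2.

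Of the 4 lymphocyte miRNAs, 1 was higher and 2 lower in neonatal than in adult VM cells, against 53.8% of all miRNAs called. MiR-181a-5p (0.51) was the higher one, and miR-150-5p (-1.60) and miR-142a-5p (-0.81) were the lower ones. In adult VM cells both miR-142a arms were higher than in adult TN cells (1.28 for 5p, 0.93 for 3p). There miR-150-5p and miR-181a-5p (-2.44) were lower, against 38.9% of all miRNAs called.

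Markers of other cells were uneven across the groups. Of 15 erythroid, myeloid, progenitor and stromal miRNAs, 5 were tested and 2 (miR-214-3p and miR-1a-3p) had no count in any library. Their summed level was 269 and 283 CPM in neonatal VM, 576 CPM in neonatal TN, 540.2 and 664 CPM in adult VM, and 259 and 346 CPM in adult TN cells. In every library most of the sum came from the miR-486 pair, near-identical arms whose levels nearly matched in each library. Their reads may be split between both names or counted under both, so they may not be separate markers in the sum and the counts given here. In adult VM replicate 2, for example, miR-486a-5p was at 294 CPM and miR-486b-5p at 295 CPM. The erythroid miR-451a was at 2.42 and 3.11 CPM in adult VM and 2.16 and 2.14 CPM in adult TN cells. It was at 5.93 and 2.87 CPM in neonatal VM and 9.65 CPM in neonatal TN cells. The myeloid miR-223-3p was at 5.64 and 15.6 CPM in adult VM and 2.16 and 1.71 CPM in adult TN cells. It was at 0.989 and 3.92 CPM in neonatal VM and 1.56 CPM in neonatal TN cells. In adult VM cells 4 of the 5 tested markers were higher and 0 lower than in adult TN cells. Of all 288 miRNAs 67 were higher and 45 lower. In neonatal VM cells 2 of the markers were higher and 2 lower than in adult VM cells, against 53.8% of all miRNAs called. The lower ones were the miR-486 pair, and the higher ones miR-126a-5p and miR-126a-3p. The progenitor and endothelial miR-126a-5p stood at 38.6 and 60.6 CPM in neonatal VM, 49.8 CPM in neonatal TN, 14.9 and 22.5 CPM in adult VM, and 3.24 and 5.56 CPM in adult TN cells. The stromal miR-143-3p stood at 31.6 and 43.9 CPM in neonatal VM, 67.2 CPM in neonatal TN, 16.5 and 25.9 CPM in adult VM, and 4.32 and 8.99 CPM in adult TN cells. Both were lowest in adult TN cells and higher in neonatal than in adult libraries. Their part in the values of miR-342 was not tested, and in sorted populations fewer cells of a type and less RNA per cell cannot be told apart.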

How the data were processed

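Per the labels' protocols, small RNA was prepared with a TruSeq kit from Illumina. The deposited values are estimated counts, unscaled, for each mature arm of each precursor. The submitters' processing notes name mm10 as the build; which aligner and counter the authors ran is not given in the sources used here. Counts were summed per mature name and rounded (the 14 values of miR-342 were already whole).

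A miRNA was tested if 2 or more libraries had 10 CPM or more of it (15.8 to 32.8 counts). The 288 that qualified were given TMM factors and tested, two-sided, in edgeR 4.0.16 (R 4.3.3) by the quasi-likelihood test with robust dispersions. SE is the log2 fold change divided by the square root of F. Arm ratios, log2((5p + 0.5)/(3p + 0.5)), of the 66 pairs matched by name with both arms tested were fitted in limma 3.58.1 with robust, trended variances. Averages over subset or age came from an additive model, the other 5 comparisons from group means, all 7 libraries entering each. P-values were Benjamini-Hochberg adjusted over all miRNAs or pairs, at 0.05. Both methods were tested on simulated counts, in which all groups shared the mean and dispersion of each miRNA apart from the changes put in. The arms of a hairpin were drawn independently. Of 2-fold changes, the level test recovered 85.9% with age over both subsets, 64.5% between adult subsets and 20.8% for the interaction. The ratio test recovered 61.8, 32.3 and 8.22% in the same order. Between 2.17 and 5% of calls were false. The simulation does not hold the wider spread between adult VM replicates, so these shares may not carry over to comparisons with adult VM cells.

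Named were both arms, the 5 miRNAs most like each, their neighbours by level, miRNAs of the same seed, and up to 2 higher and 2 lower members of each list per comparison; miRNAs with a run of G were chosen after their values were seen. The 5 lists are resting T cell, T cell activation, lymphocyte and other cell markers, and intronic miRNAs. Members and lists were chosen with earlier results of these data known. The alternatives tried were scaling by RLE factors, upper quartiles or library totals, no filter, a 100 CPM filter, DESeq2 1.42.0, limma voom, the libraries compared alone, pseudocounts, an edgeR arm interaction, a replicate block and each library left out. The fold was predicted with RNAfold 2.7.2, and figures were drawn with matplotlib 3.10.9. Reads and isomiRs were not analysed here.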

Additional observations from a re-analysis of the deposited data

How the results depend on the processing

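Over 106 alternative values each, the sign and the side of the threshold were kept in 91 for miR-342-3p and 91 for miR-342-5p, and in 76 of 88 for the arm ratio. Signs turned for values near 0: miR-342-3p with age over both subsets under library totals (0.32) and the 100 CPM filter (0.036), with age in VM without a filter (-0.069), and between neonatal subsets under library totals (0.14) and upper quartile factors (0.27); and miR-342-5p with age in TN under library totals (0.17). With all libraries kept, calls gained were miR-342-5p with age in VM under library totals (1.86), the 100 CPM filter (1.59), DESeq2 (1.50) and limma voom (1.59), and between adult subsets under the 100 CPM filter (-1.61), DESeq2 (-1.55) and limma voom (-1.68); and miR-342-3p with age in VM under library totals (0.55) and in TN under upper quartile factors (-0.72). Calls lost were miR-342-3p between adult subsets under library totals (-0.46), and the arm ratio with age in VM under the 100 CPM filter (1.53, adjusted p = 0.0553) and without a filter (1.53, adjusted p = 0.104), with 6 pairs called in each of those fits. The cause was not tested.

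With each library left out in turn, miR-342-3p ranged from -0.24 to 0.074 with age over both subsets, -0.73 to -0.32 in TN and -0.0028 to 0.16 in VM, and from -0.58 to -0.22 with subset over both ages, -0.88 to -0.41 in adult and -0.14 to -0.0041 in neonatal cells. MiR-342-5p ranged from 0.83 to 2.37 with age in VM, -2.51 to -0.99 between adult subsets and 1.06 to 2.60 for the interaction. The ratio ranged from 0.52 to 1.53 with age over both subsets, 0.84 to 2.22 in VM, -1.80 to -0.42 between adult subsets and 0.62 to 2.01 for the interaction. MiR-342-5p gained its call with age in VM without either adult VM library or adult TN replicate 2. It ranged, without a call, from 0.30 to 1.39 with age and -1.47 to -0.46 with subset over both, where the ratio ranged from -1.11 to -0.11.

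Counts of miRNAs called ranged, leaving out a library, from 115 to 158 (155 with all) for age over both subsets, 18 to 111 (71) for subset over both ages, 83 to 179 (138) for age within TN, 106 to 171 (155) within VM, 23 to 142 (112) between adult subsets, 16 to 77 (28) between neonatal subsets and 6 to 86 (23) for the interaction. Counts of arm pairs called ranged from 8 to 24 (18), 0 to 5 (4), 4 to 23 (9), 6 to 28 (19), 0 to 34 (3), 0 to 4 (0) and 0 to 15 (0) in the same order. Between neonatal subsets and for the interaction, where limma called 0 pairs, 7 and 10 pairs had an unadjusted p under 0.05, and the edgeR arm interaction called 0 in each. The 100 CPM filter, which tests fewer miRNAs, called 79 miRNAs for age over both subsets, 41 for VM against TN over both ages, and 69 and 93 for age within TN and within VM, and 7, 2, 3, 6 and 1 arm pairs for those 4 comparisons and between adult subsets. Without a filter, 53 miRNAs were called between neonatal subsets and 43 for the interaction, and 0 pairs for VM against TN over both ages, 0 and 6 for age within TN and within VM, and 0 between adult subsets. Between neonatal subsets upper quartile factors called 52 and the libraries compared alone 80 miRNAs; DESeq2 called 38 for the interaction; the edgeR arm interaction called 5 pairs between adult subsets.

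The replicate numbers did not pair the libraries: the correlation of deviations from the group mean was 0.138 between neonatal VM and adult VM, -0.16 between neonatal VM and adult TN and 0.0165 between adult VM and adult TN cells. With the replicate number as a block, the ratio passed with age over both subsets (0.94, limma adjusted p = 0.0374) and turned sign with age in TN (-0.025), 42 miRNAs and 1 arm pair were called for subset over both ages, and 0 pairs between adult subsets.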
